A study of Hordeum vulgare with 18 samples.

Results

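miR9662, miR7757 and miR9779 are microRNA (miRNA) families whose reference precursors in the deposited tables come mainly from bread wheat (Triticum aestivum), a close relative of barley. Their members here are all distinct sequences whose annotated name holds MIR9662, MIR7757 or MIR9779, with or without a locus letter. That gave 194 of the 7252 sequences listed in any table, with 82 for MIR9662, 71 for MIR7757 and 41 for MIR9779. At 1 h 135 of them were listed, at 3 h 127 and at 6 h 127, and 82 were in all 3 tables. None carried the number of another family as well. The sequences were chosen by name, with no measured value, but the 3 families were put forward with heat and control values of these libraries already known. Their differences between heat and control are therefore descriptions, and each p value only places a difference beside the rest of its table.

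The sequences came from small RNA libraries of shoots of barley, the spring line Rolap, 2 weeks old. Shoots had been at 35.5 °C (heat) for 1, 3 or 6 h, or had stayed at 21 °C (control) and were collected at the same times. Each of the 6 groups held 3 libraries, labelled as biological replicates. All plants shared 1 genotype, so heat and duration were the treatment variables between groups, and the sequencing lane also differed between some of them.

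Plant miRNAs are cut by a Dicer-like enzyme from a hairpin precursor as a duplex of both arms. One strand, the mature miRNA, is loaded into an ARGONAUTE protein and guides it to matching mRNAs, while the other strand, the star, is usually lost. A shift of the cut by a base changes the 5′ end and with it the seed, and loss or gain of bases at the 3′ end leaves the seed as it was. The wheat families described here belong to the lineage-specific class, which often has few loci and low or uneven levels, next to the deeply conserved families shared by most land plants.

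The tables held 1449374 to 3214221 counts of a library, or 5.11 to 9.02% of all its reads as implied by the deposited RPM, reads scaled to the size of the library. A floor of 3 counts equals 0.0678 to 0.129 RPM and covers counting error only. Heat and control libraries of 1 h shared lane 1 and those of 6 h shared lane 2, while at 3 h heat lay on lane 1 and control on lane 2. Lane and temperature cannot be told apart at 3 h. The control 3 h replicate 1 stood apart from its group in miR9662. Differences between heat and control at 3 h in the family totals, the called and mature forms of miR9662 and the ratios are therefore given without it as well.

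The sequences that the results turn on are the mature miRNAs, the most abundant variants of each family and the opposite arm, as the deposited tables list them. They are written 5′ to 3′ in DNA letters, with bases 2 to 8, the seed, in capitals.
miR9662b mature form, 21 nt: tGAACATCccagagccaccgg
miR9662b form of 20 nt: tGAACATCccagagccaccg
miR9662b form of 19 nt: tGAACATCccagagccacc
miR9662a mature form, 21 nt: tTGAACATcccagagccaccg
miR9662a form of 20 nt: tTGAACATcccagagccacc
miR9662 upstream form, 21 nt: cGGCGCTTgcttgaacatccc
miR9662 opposite arm, 21 nt: gCGGCTCTctggtgttcaagc
miR7757 mature form, 22 nt: aTAAAACCttcagctatccatc
miR7757 form of 21 nt: aTAAAACCttcagctatccat
miR7757 form of 20 nt, 1 base upstream: tATAAAACcttcagctatcc
miR7757 form of 21 nt, downstream start: aAACCTTCagctatccatctc
miR7757 opposite arm, 21 nt: aTGGATAGtttgaggttttat
miR9779 first block, 21 nt: aCCTATGAtgagttgcgaact
miR9779 first block, 20 nt: aCCTATGAtgagttgcgaac
miR9779 first block, 24 nt: aCCTATGAtgagttgcgaactgta
miR9779 mature form, 20 nt: cTTATGCAacgtctgaggat
miR9779 second block, 19 nt: tTATGCAAcgtctgaggat
miR9779 second block, 18 nt: tATGCAACgtctgaggat

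The seeds sort these forms. The miR9662a and miR9662b mature sequences are the same stretch read 1 base apart, so they carry different seeds, TGAACAT for miR9662a and GAACATC for miR9662b. Sequences with the seed GAACATC held 55.3% of the miR9662 counts and those with TGAACAT held 40.4%, out of 38 seeds found in the family. In miR7757 the seed TAAAACC held 84.9% of the counts, out of 31 seeds. In miR9779 the seed CCTATGA held 52.2% and ATGCAAC held 16.6%, out of 19 seeds.

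The 3 families lay far apart in level. miR9662 had 544793 counts over the 18 libraries, which was 98.4% of the counts of all 3 families, and its level had a lowest value of 291 RPM, a median of 963 RPM and a highest value of 1776 RPM. miR7757 had 7436 counts and a lowest, median and highest level of 7.27, 13.1 and 16.1 RPM. miR9779 had 1480 counts and levels of 1.63, 2.43 and 4.47 RPM. The ranges did not overlap, so the order was the same in each of the 18 libraries. Among all families of a table miR9662 ranked 11 by counts at 1 h (of 170 families), 11 at 3 h (of 174) and 9 at 6 h (of 186). miR7757 ranked 31, 35 and 36 in the same tables, and miR9779 ranked 50, 52 and 51. miR9662 took 0.560 to 1.97% of the counts of a library's table.

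The families also differed in the starts and lengths of their sequences. All 82 miR9662 sequences joined into 1 overlapping chain of 1 precursor stretch. The miR9662b mature form held 46.4% of the counts of the family over all libraries with 253043 counts, and the miR9662a mature form held 29.2% with 159042 counts. The 3 next most abundant were end variants of these, the 20 nt form of miR9662a with 10.7%, the 19 nt form of miR9662b with 5.47% and the 20 nt form of miR9662b with 2.99%. These shorter forms match the precursors of both loci and are named here by their first base. By position, 44.5 to 64.8% of the miR9662 counts of a library started at the first base of miR9662b and 31.0 to 49.8% started 1 base earlier, at that of miR9662a. A smaller share of 1.64 to 4.49% started 4 bases before miR9662a.

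The opposite arm of miR9662 was found as a 21 nt sequence with 129 counts, listed in 3 of 3 tables, whose first base lies 57 bases before that of miR9662a. Set against miR9662a with a 3′ overhang of 2 bases, the spacing that Dicer cuts leave, 15 of the 19 facing bases were complementary (G facing T not counted), with a longest run of 7. The sequence was picked for an end complementary to the start of miR9662a plus 2 further bases. The overhang and part of the complementary bases were thus fixed by the choice. In miR7757 the mature form held 76.8% of the counts with 5713 counts, and 28 sequences overlapping it held 95.0%. A second block of 27 sequences held 4.06%, and its most abundant sequence, with 135 counts, was complementary to the mature form at 18 of 21 bases. Set side by side this way, the 3′ end of this second-block sequence leaves an overhang of 0 bases, unlike the 2 bases by which the miR9662 arm was picked. The mature form, at 22 nt, runs past the 21 facing bases at its own 3′ end. The remaining 16 miR7757 sequences, with 69 counts in all, matched precursors of Brachypodium, a wild grass.

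miR9779 departed from this pattern. Its annotated mature form had 14 counts over the 18 libraries. They were 0, 4 and 6 counts in the heat libraries of 6 h and 0, 0 and 4 in the control libraries of 3 h, and the other 12 libraries were at 0 counts, which allows up to 0.0678 to 0.129 RPM depending on the library. A block of 25 overlapping sequences, the first block above, held 61.6% of the counts, led by a 21 nt form with 283 counts, and the second block, which holds the mature form, held 38.4%. The 21 nt leader was complementary to the mature form at 8 of 20 facing bases. The lengths were spread, with 20.7% of the counts at 18 nt, 12.1% at 19 nt, 18.2% at 20 nt, 23.8% at 21 nt and 10.5% at 22 nt. By contrast 78.3% of the miR9662 counts were 21 nt long and 79.9% of the miR7757 counts were 22 nt long.

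**Figure D1:**
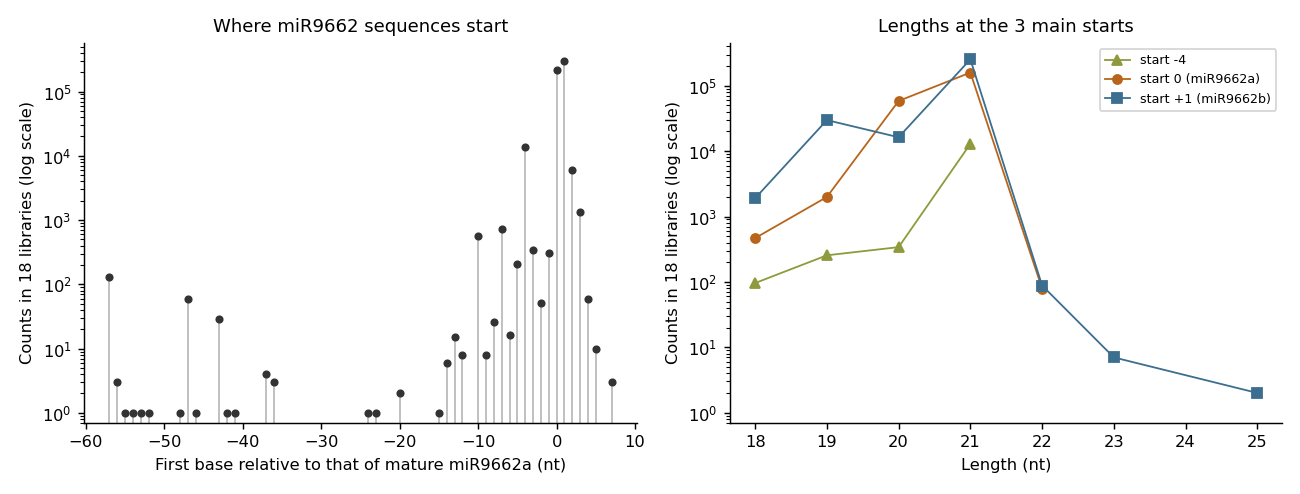
Left, counts of miR9662 sequences summed over 18 libraries (log scale) against the position of the first base, in nt from the first base of mature miR9662a. Right, counts by length in nt (log scale) for the 3 main starts. Starts 0 and +1 stand far above all others, and the start at -57 with 129 counts, the highest point left of -20, is the opposite arm.

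The plot of miR9662 start positions shows a narrow pair of peaks and a thin spread of reads before them. Every length profile has its highest point at 21 nt. From start 0 the 20 nt form was the next most abundant, whereas from start +1 it was the 19 nt form.

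Family totals were then compared between heat and control at each time. They are given as CPM, counts scaled to the table total of the library times its TMM factor, and CPM of different times come from different tables. In the edgeR fits of 1 duration each, no family total of the 3 was called at an adjusted p under 0.05. Over all families tested in these fits the share called was 0.0% at 1 h, 2.63% at 3 h and 16.0% at 6 h. A shoot holds many cell types, so fewer cells of a type and less RNA per cell cannot be told apart.

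miR9662 had 12372, 11359.6 and 10208 CPM in heat libraries at 1 h, against 10309, 10394 and 10475 CPM in control libraries. At 3 h the heat libraries had 13425, 12309.7 and 15600.2 CPM, and the control libraries had 4889.7, 16121 and 16842 CPM. At 6 h the heat libraries had 19419, 19018 and 17443 CPM, and the control libraries had 17705, 18923 and 19552 CPM. The groups overlapped at each time, and the low library at 3 h was control replicate 1. The log2 fold changes of heat over control were 0.12 ± 0.18 (SE; edgeR adjusted p = 0.812), 0.13 ± 0.46 (0.883) and -0.01 ± 0.11 (1.000) at 1, 3 and 6 h. Without control replicate 1 the value at 3 h was -0.25 (edgeR adjusted p = 0.328).

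miR7757 averaged 222 ± 29.6 CPM in heat and 191 ± 23.5 CPM in control at 1 h (SD, n = 3 each). At 3 h it averaged 194 ± 26.2 CPM in heat and 161 ± 46.3 CPM in control, and at 6 h 186 ± 23.0 CPM in heat and 174 ± 46.7 CPM in control. The ranges of both groups overlapped at each time. The log2 fold changes were 0.22 ± 0.21 (SE; edgeR adjusted p = 0.697), 0.27 ± 0.25 (0.555) and 0.10 ± 0.26 (0.892). Without control replicate 1 the value at 3 h was 0.12 (edgeR adjusted p = 0.761).

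The total of miR9779, the least abundant family, differed in the same direction at the 3 times. Of the counts in this total 99.1% were annotated as precursor and 0.946% as the mature form. The total therefore does not give the level of the mature form. As family totals the libraries had 48.3, 41.7 and 45.0 CPM in heat and 31.5, 25.4 and 31.3 CPM in control at 1 h. At 3 h they had 46.7, 41.1 and 44.2 CPM in heat and 35.9, 25.8 and 33.2 CPM in control. At 6 h they had 38.5, 47.8 and 52.5 CPM in heat and 29.7, 31.1 and 26.2 CPM in control. Each heat library lay above each control library of its time, while over all families tested the share with all heat libraries above all control libraries was 12.0% at 1 h, 7.89% at 3 h and 18.7% at 6 h. The log2 fold changes were 0.62 ± 0.23 (SE; edgeR adjusted p = 0.370), 0.48 ± 0.18 (0.235) and 0.67 ± 0.23 (0.113). Without control replicate 1 the value at 3 h was 0.58 (edgeR adjusted p = 0.168). The counts behind them were small, 127, 95 and 115 in heat and 72, 79 and 84 in control at 1 h, for example. In 1 edgeR fit of all 18 libraries the family was called at 6 h, with 0.74 ± 0.21 and an adjusted p of 0.0312, beside 12.0% of the 83 families called at 6 h in that fit. The first block took 69.9 ± 15.1% of the family in heat and 59.5 ± 3.87% in control at 1 h (SD, n = 3 each). At 3 h these shares were 65.6 ± 8.40% and 57.0 ± 10.4%, and at 6 h 61.8 ± 18.3% and 46.9 ± 11.5%. They overlapped at each time, and the CPM of the 2nd block, which holds the mature form, was not tested apart.

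**Figure D2:**
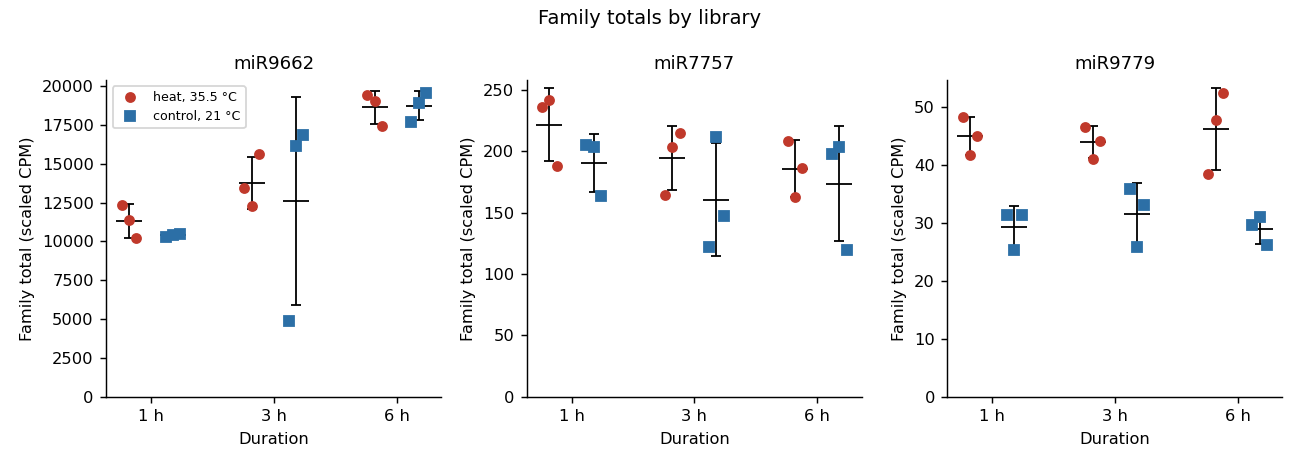
Family totals in TMM-scaled CPM for each library at 1, 3 and 6 h, with heat (35.5 °C) as circles left of control (21 °C) as squares; bars are the mean and SD of 3 libraries. The miR9779 heat libraries lie above the control libraries at each time, miR9662 and miR7757 overlap, and the low miR9662 square at 3 h is control replicate 1.

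The plot of family totals shows the 3 families on axes of their own, each starting at 0. The wide control bar of miR9662 at 3 h, with an SD of 6702 CPM on a mean of 12617 CPM, comes from that 1 library. The heat libraries of the same time averaged 13778 ± 1673 CPM.

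Few members carried enough counts for a test of their own. Of the member sequences 29 passed the filter on low counts at 1 h, 28 at 3 h and 25 at 6 h. They held 99.4 to 99.5% of the counts of the 3 families, but in miR9779 they held 52.3% at 1 h, 56.9% at 3 h and 33.02% at 6 h. At 1 h 0 were called by edgeR, beside 1.76% of all sequences tested, and 0 had an unadjusted p under 0.05, beside 10.7%. At 3 h 0 were called by edgeR, beside 4.35% of all sequences, and 2 had an unadjusted p under 0.05, beside 19.8%. DESeq2 called 2 members at 3 h, beside 8.47% of all sequences, and the edgeR fit of 18 libraries called 2, beside 6.87%. At 6 h 2 were called, both higher in heat and both miR9662, beside 12.1% of all sequences called in either direction and 6.07% called higher, and 4 had an unadjusted p under 0.05, beside 27.3%. The ranges of heat and control did not overlap for 6 member sequences at 1 h, 3 at 3 h and 7 at 6 h, beside 16.6, 25.9 and 33.2% of all sequences tested.

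The first of the 2 called sequences was the 20 nt form of miR9662a, which is its mature form without the last base and has the same seed. At 1 h it had 1585, 1273 and 1198 CPM in heat, against 1195, 1011 and 996 CPM in control. At 3 h it had 2067, 1718 and 1656 CPM in heat, against 602, 1194 and 910.0 CPM in control. At 6 h it had 2493, 2748 and 2629.8 CPM in heat, against 1178, 1196 and 1255 CPM in control. Heat libraries lay above the control libraries at each time, by a margin of 3 CPM at 1 h. At 6 h the log2 fold change was 1.12 ± 0.12 (SE; edgeR adjusted p = 0.00149). At 1 h it was 0.34 ± 0.22 (adjusted p = 0.675) and at 3 h 1.01 ± 0.30 (edgeR adjusted p = 0.111; DESeq2 adjusted p = 0.0278; edgeR fit of 18 libraries, adjusted p = 0.00346). Without control replicate 1 the value at 3 h was 0.79 (edgeR adjusted p = 0.0648). The authors' deposited table gives this sequence a signed fold of 2.24 with an FDR-corrected p of 0.0014 at 6 h, a fold of 2 with 0.472 at 3 h and a fold of 1.25 with 1 at 1 h. The heat effect of 6 h minus that of 1 h was 0.91 ± 0.30 on the log2 scale (edgeR adjusted p = 0.373), and the share of sequences called in that contrast was 0.0%.

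The second was the upstream form, which starts 10 bases before miR9662a and ends within it, so its seed, GGCGCTT, is unlike that of either mature form. It held 0.0977% of the family with 532 counts. Its counts were 51, 48 and 46 in heat, against 7, 46 and 30 in control at 1 h. They were 56, 28 and 30 in heat, against 5, 16 and 15 in control at 3 h, and 52, 52 and 22 in heat, against 10, 8 and 10 in control at 6 h. In CPM the groups did not overlap at any of the 3 times. At 6 h the means were 19.4 ± 4.92 CPM in heat and 6.10 ± 1.00 CPM in control (SD, n = 3 each), with a log2 fold change of 1.67 ± 0.40 (SE; edgeR adjusted p = 0.0278). The call was lost in 5 of the 6 fits that left out a library, with edgeR adjusted p values of 0.0615 to 0.116, and held without heat replicate 3 (0.0324). The log2 fold changes at 1 h and 3 h were 0.99 ± 0.49 (edgeR adjusted p = 0.524) and 1.65 ± 0.48 (0.108). At 3 h it was called by DESeq2 (adjusted p = 0.0384) and in the edgeR fit of 18 libraries (adjusted p = 0.0315), and without control replicate 1 its value was 1.34 (edgeR adjusted p = 0.109).

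The mature forms were not called. The miR9662b mature form averaged 4428 ± 573 CPM in heat and 4134 ± 274 CPM in control at 1 h (SD, n = 3 each), with a log2 fold change of 0.10 ± 0.21 (edgeR adjusted p = 0.930). At 6 h it averaged 9174 ± 1335 CPM in heat and 10169 ± 978 CPM in control, with -0.15 ± 0.14 (adjusted p = 0.567). At 3 h its fold change was -0.08 ± 0.55 (edgeR adjusted p = 0.953), where its control libraries ran as low as 1428 CPM in replicate 1, and without that library it was -0.55 (edgeR adjusted p = 0.153).

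The miR9662a mature form averaged 4343 ± 425 CPM in heat and 4843 ± 158 CPM in control at 6 h (SD, n = 3 each), with a log2 fold change of -0.16 ± 0.12 (edgeR adjusted p = 0.462). At 1 h and 3 h its fold changes were 0.06 ± 0.20 (adjusted p = 0.938) and 0.24 ± 0.36 (0.737), the second being -0.10 without control replicate 1 (edgeR adjusted p = 0.794). At 6 h the 2 shorter forms that start with miR9662b had opposite signs. The 20 nt form had -0.31 ± 0.14 (edgeR adjusted p = 0.176), with all 3 heat libraries below the control libraries, and the 19 nt form had 0.21 ± 0.14 (adjusted p = 0.385), with overlap.

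The mature form of miR7757 had 187, 182 and 158 CPM in heat, against 158, 155 and 121 CPM in control at 1 h. The closest pair, heat replicate 3 and control replicate 1, differed by less than 1 CPM. Its log2 fold changes were 0.28 ± 0.23 (SE; edgeR adjusted p = 0.744), 0.17 ± 0.31 (0.783) and 0.18 ± 0.27 (0.701) at 1, 3 and 6 h. Without control replicate 1 the value at 3 h was -0.020 (edgeR adjusted p = 0.969). Its 21 nt form had 14, 1 and 14 counts in heat and 14, 26 and 15 in control at 6 h, with -1.26 ± 0.77 (edgeR adjusted p = 0.364). In miR9779 the 21 nt leader had 0.45 ± 0.53, 0.46 ± 0.53 and 0.20 ± 0.55 at the 3 times, and its 20 nt form 0.67 ± 0.58 at 1 h and 1.12 ± 0.63 at 3 h. From the second block the 18 nt form had -0.12 ± 0.68 at 1 h and 0.48 ± 0.56 at 3 h, and the 19 nt form had -0.47 ± 0.63 at 6 h. None of these miR9779 sequences was called, and each had overlapping groups.

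**Figure D3:**
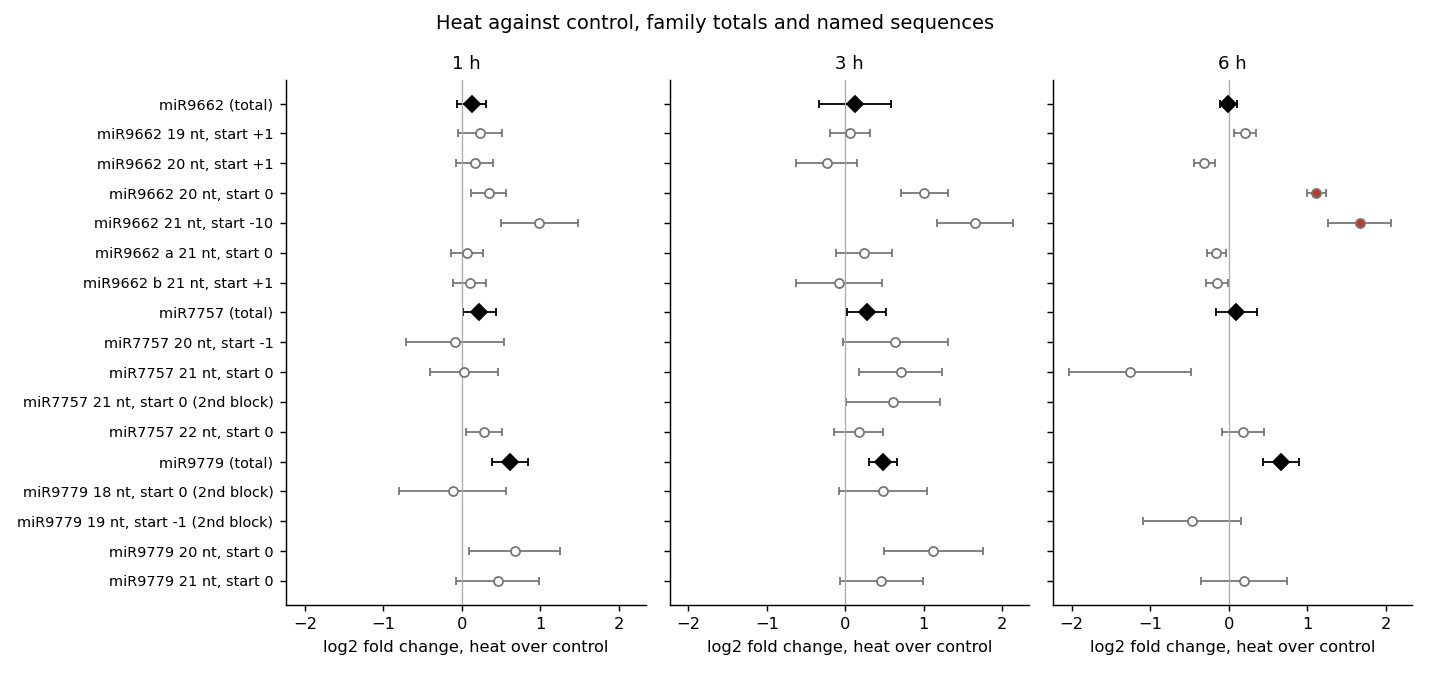
log2 fold change of heat over control (edgeR) with its SE for the family totals (black diamonds) and the named sequences tested (circles), at 1, 3 and 6 h. In miR9662 start is in nt from the first base of mature miR9662a. In miR7757 and miR9779 it is in nt from the first base of the most abundant sequence of a block. Filled red circles passed an adjusted p under 0.05, which were the 20 nt miR9662a form (1.12) and the upstream form (1.67) at 6 h.

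The plot of fold changes sets each family total above its own sequences. The total of miR9662 lies near 0 at 6 h with an SE of 0.11, while the sequences that make it up lie on both sides of it. At 1 h and 6 h the totals of miR7757 and miR9779, whose counts are lower, have wider error bars than the miR9662 total. At 3 h the miR9662 total has the widest, with an SE of 0.46, against 0.25 for miR7757 and 0.18 for miR9779.

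Because the 20 nt form of miR9662a differs from its mature form by 1 base at the 3′ end, the ratio of the 2 was taken within each library, which needs no scaling. This ratio was chosen after the values had been seen. On the log2 scale it was -1.26, -1.75 and -1.65 in heat, against -1.70, -1.85 and -1.93 in control at 1 h. At 3 h it was -1.01, -1.25 and -1.35 in heat, against -1.46, -1.84 and -2.35 in control. At 6 h it was -0.79, -0.52 and -0.86 in heat, against -2.09, -1.99 and -1.92 in control. The groups overlapped at 1 h and not at 3 h or 6 h. The difference of the means was 0.27 at 1 h (exact permutation p = 0.2), 0.68 at 3 h (p = 0.1) and 1.28 at 6 h (p = 0.1). Without control replicate 1 it was 0.89 at 3 h. With 3 libraries against 3 the smallest p that such a test can give is 0.1, and adjusted over 6 ratios the value at 6 h was 0.3.

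The same ratio, the form 1 base shorter at the 3′ end over the mature form, was taken for the other mature sequences with both forms tested. There were 60 of them at 1 h, 61 at 3 h and 59 at 6 h, from 20, 20 and 19 families, and many share sequence with each other. Their median difference of heat minus control was 0.34 at 1 h, 0.31 at 3 h and 0.33 at 6 h, above 0 at each time. With the members included, the share whose heat libraries all lay above all control libraries was 23.8% at 1 h, 32.8% at 3 h and 37.1% at 6 h. By this difference miR9662a ranked 32 at 1 h (of 63 mature sequences), 19 at 3 h (of 64) and 8 at 6 h (of 62). At 6 h the others ran from -1.06 to 2.87. miR9662b had differences of 0.05, -0.45 and -0.16 at 1, 3 and 6 h, and miR7757 had -0.24, 0.51 and -2.07.

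**Figure D4:**
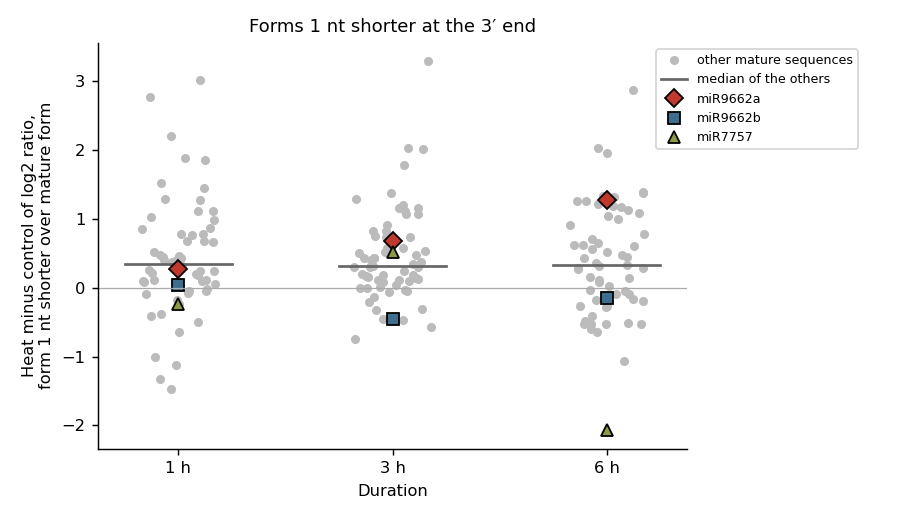
Difference, heat minus control, of the mean log2 ratio of the form 1 nt shorter at the 3′ end over the mature form, for every mature sequence with both forms tested at 1, 3 and 6 h. Grey points are other mature sequences and the grey line is their median (0.34, 0.31 and 0.33), and coloured symbols are miR9662a, miR9662b and miR7757.

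The plot of shorter forms has most grey points above 0 at each time. The red diamond of miR9662a lies in the middle of them at 1 h and in the upper part at 6 h, and the blue square of miR9662b lies below the line at each time.

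The ratio of the miR9662b to the miR9662a mature form compares the 2 starts within a library. Whether it reflects the cut or the level of each locus was not tested. The ratio was 1.32, 1.04 and 1.02 in heat, against 0.984, 1.19 and 1.12 in control at 1 h. At 3 h it was 1.33, 1.20 and 1.80 in heat, against 0.863, 1.97 and 1.98 in control. At 6 h it was 2.30, 2.53 and 1.60 in heat, against 1.81, 2.18 and 2.32 in control. Heat and control overlapped at each time (exact permutation p = 0.8 at 1 h, 0.8 at 3 h and 1 at 6 h). At 3 h the overlap came from control replicate 1: the heat libraries lay below the other 2 control libraries, and the difference of the mean log2 ratio was -0.47 without replicate 1, against -0.074 with it. Replicate 1 was left out because of its miR9662 values, so the value without it is only a description. The libraries of 6 h, all on lane 2, lay above those of 1 h, all on lane 1, in both temperatures, and lane and time cannot be told apart between them.

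**Figure D5:**
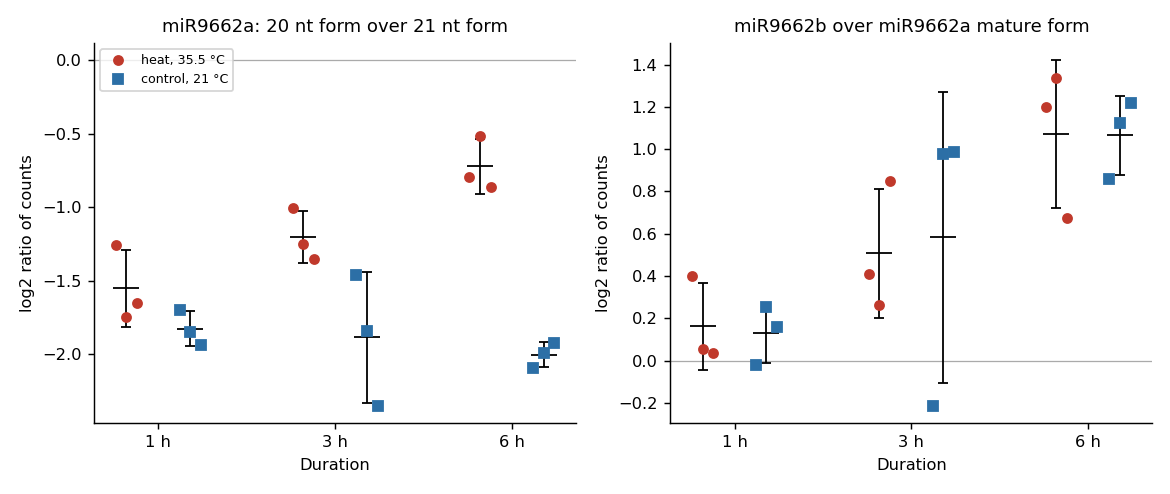
log2 ratios of counts in each library at 1, 3 and 6 h, with heat as circles left of control as squares and bars for the mean and SD of 3 libraries. Left, the 20 nt over the 21 nt form of miR9662a, where heat and control separate by 1.28 at 6 h; right, the miR9662b over the miR9662a mature form, where they overlap, at 3 h through control replicate 1.

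The plot of form ratios places a separation by temperature beside one without it. In the right panel control replicate 1 of 3 h is the lowest point, on the side of the 1 h libraries.

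By length, at 6 h the 20 nt share of the whole miR9662 family was 17.97 ± 1.20% of the counts in heat and 10.9 ± 0.27% in control (SD, n = 3 each), and the mature forms made up 72.5 ± 1.23% in heat and 80.1 ± 0.529% in control. Neither pair of groups overlapped (exact permutation p = 0.1, the smallest possible). Beside it, the 20 nt share of all other counts in the table was 6.93 ± 0.197% in heat and 5.89 ± 0.146% in control at 6 h, which did not overlap either (exact permutation p = 0.1). Among the miR9662 counts that start with miR9662a, the share ending 1 base early was 36.1, 40.8 and 35.1% in heat and 18.8, 19.9 and 20.7% in control at 6 h. Of 45 shares of arm and length compared over the 3 families and 3 times, 6 did not overlap, and the lowest adjusted p was 0.711. Those of miR9662 at 6 h among them are parts of the same whole and are not separate results. The mature form of miR7757 took 67.8 to 84.4% of that family in a library.

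Ratios between the families, also free of scaling, were compared in 9 tests. The log2 ratio of miR9662 to miR9779 was 7.99, 8.08 and 7.82 in heat, against 8.35, 8.67 and 8.38 in control at 1 h, and 8.97, 8.63 and 8.37 in heat, against 9.20, 9.24 and 9.53 in control at 6 h. Heat and control did not overlap at either time, and the difference of heat minus control was -0.50 at 1 h and -0.67 at 6 h (exact permutation p = 0.1 each, adjusted 0.45). At 3 h it was 8.16, 8.22 and 8.45 in heat, against 7.08, 9.27 and 8.98 in control, with a difference of -0.17 (exact permutation p = 1). The overlap came from control replicate 1, and without it the groups did not overlap and the difference was -0.85. That library was left out because of its low miR9662, a part of this ratio. The separation without it was thus partly fixed by the choice and is only a description. The ratios of miR9662 to miR7757 and of miR7757 to miR9779 overlapped at each time, and their differences at 3 h without that library were -0.39 and -0.46.

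Across durations, the fit of all 18 libraries gave the difference between the heat effects of 6 h and of 1 h. It was 0.00 for miR9662, 0.01 for miR7757 and 0.19 ± 0.30 for miR9779 on the log2 scale (SE; edgeR adjusted p = 0.931 for miR9779), beside 1.2% of 83 families called. Within a lane, control shoots at 6 h minus those at 3 h had 0.46 ± 0.29 for miR9662 (edgeR adjusted p = 0.750), -0.01 for miR7757 and -0.26 ± 0.22 for miR9779. These values include control 3 h replicate 1, which was low in miR9662, and are not given without it. Heated shoots at 3 h minus those at 1 h had 0.24 ± 0.29, -0.24 ± 0.24 and -0.08 ± 0.21 for the same families. None was called in these contrasts, in which 0.0% of all families were.

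The other families numbered from wheat and barley small RNA work, 36 or 37 of them listed in a table, were counted in the same fits. At the family level 15 were tested at 1 h, 15 at 3 h and 13 at 6 h, and 1 was called, miR9863 at 6 h, higher in heat, beside the 0.0, 2.63 and 16.0% of all families called. In barley miR9863 is known to act on mRNAs of Mla immune receptors. The median log2 fold change of these families was 0.36 at 1 h, -0.27 at 3 h and 0.02 at 6 h, beside 0.12, -0.20 and -0.08 over all families tested. At the sequence level 27, 22 and 22 were tested, with 1 miR6191 sequence called lower in heat at 3 h and 1 miR9863 sequence called higher at 6 h, beside the 1.76, 4.35 and 12.1% of all sequences called. The median over the tested sequences of miR9662, miR7757 and miR9779 was 0.13, 0.40 and -0.05 at the 3 times, beside 0.07, -0.08 and -0.00 over all sequences tested.

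The correlations below run over libraries that differed in lane, time and temperature, with control 3 h replicate 1 included. The scaling of a library was shared by all its families. The families whose log2 CPM over the 18 libraries ran most like that of each member are given as a description, among 83 families. For miR9662 they were miR8005 (Pearson r = 0.767), miR5054 (0.734) and miR5072 (0.679). For miR7757 they were miR396 (0.565), miR159 (0.531) and miR9773 (0.524). For miR9779 they were miR319 (0.736), miR5083 (0.698) and miR9863 (0.678).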

How the data were processed

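Per the file headers, the authors trimmed reads and matched sequences to known precursors of plants. The deposited counts give whole reads of a distinct sequence in a library. The deposited RPM equal the count times 1 constant per library, from which library totals of 23280481 to 44219180 were computed. The authors' fold is a signed linear score, negative where heat is lower, with an FDR-corrected p-value, per the file headers. The aligner and the annotation release were not given in the sources used here. Without a genome, no coordinates appear. Near-identical loci such as miR9662a and miR9662b share sequences, and the split of reads between them is uncertain.

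Counts were tested in each table with edgeR 4.0.16 (R 4.3.3; quasi-likelihood F test, TMM factors of 0.815 to 1.27, filterByExpr with minimum count 10 and minimum total 15, Benjamini-Hochberg over all features). Family totals used the library sizes and factors of the sequence table. Calls are at an adjusted p under 0.05. Features in all 3 tables went into 1 fit of 18 libraries. Ratios added 0.5 counts and, like shares, were tested by exact permutation, two-sided (scipy 1.17.1). The edgeR steps were tested on simulated data. Alternatives used DESeq2 1.42.0, RLE factors, implied library totals, no filter, a prior count of 5, mature forms alone and leaving out libraries or sequences. Named were the family totals, the mature forms, the 5 most abundant sequences of each family and each called sequence. The opposite arm of miR9662 was chosen by its complementary end and overhang, after its position was seen. The members and lists were chosen with earlier results of these data known. Replicate numbers are names given in accession order.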

Additional observations from a re-analysis of the deposited data

How the results depend on the processing

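No paired analysis was possible because the labels carry no replicate numbers. The 20 nt miR9662a form at 6 h was called in all 11 alternatives, with an adjusted p of at most 0.0191 and log2 values of 1.10 to 1.16 without a library. The number of members called higher at 6 h was 1 to 2 when a library was left out, since the upstream form lost its call. At 3 h the 20 nt miR9662a and the upstream form, 2 members, were called higher with DESeq2, beside 8.47% of all sequences, and with 1 fit of 18 libraries, beside 6.87%. miR9779 was called at 6 h in that fit (0.74), beside 12.0% of families. Causes were not tested. The implied library totals, which moved the median over all sequences (-0.24 at 1 h and 0.25 at 6 h), turned the sign of miR9662 (-0.11) and miR7757 (-0.021) at 1 h and of miR9662 at 6 h (0.28). The last also turned with no filter (0.037), in 1 fit of 18 libraries (0.053) and without a library (-0.043 to 0.034). Without a library miR9662 at 3 h ran from -0.25, without control replicate 1, to 0.43, and miR7757 at 6 h from -0.12, without control replicate 3, to 0.22.

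The effect at 6 h minus 1 h was -0.084 for miR9662 and -0.077 for miR7757 with RLE factors. Without a library it ran from -0.15 to 0.031 for miR9662, from -0.28 to 0.057 for miR7757 and from -0.0092 to 0.31 for miR9779. Control 6 h minus 3 h was 0.045 for miR7757 with RLE factors. Without the most abundant sequence of its family, heat minus control was -10.7 percentage points for the mature share and 11.5 for the 20 nt share of miR9662 at 6 h, and -2.89 for the 22 nt share of miR7757 at 1 h.

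Uncalled sequences that turned sign were these. At 1 h the 21 nt miR7757 form had -0.031 with RLE factors, -0.21 with implied totals, -0.031 with DESeq2, -0.040 in 1 fit and -0.23 to 0.23 without a library. With implied totals the miR9662b mature form had -0.14, the miR9662a mature form -0.18 and the 20 nt miR9662b form -0.066, and miR9662a had -0.0087 in 1 fit. Without a library the ranges at 1 h were -0.038 to 0.17 for mature miR9662b, -0.0042 to 0.076 for mature miR9662a, -0.18 to 0.40 for the 19 nt and -0.025 to 0.31 for the 20 nt miR9662b form, -0.82 to 0.28 for the 20 nt miR7757 form and -0.57 to 0.68 for the 18 nt miR9779 form. At 3 h they were -0.55 to 0.33 for mature miR9662b (0.00051 in 1 fit), -0.10 to 0.52 for mature miR9662a, -0.080 to 0.16 for the 19 nt form, -0.020 to 0.44 for mature miR7757 and -0.19 to 1.13 for its 20 nt form. At 6 h mature miR7757 ran from -0.069 to 0.39, and with implied totals mature miR9662b had 0.16 and mature miR9662a 0.093. miR9779 had too few mature counts for the mature forms alone. Depth limits miR9779 and the rarer miR7757 forms, most of which were under the filter.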
